A study of Homo sapiens with 12 samples.

Results

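The genes described here are human genes whose symbols begin with ZNF, most of which encode C2H2 zinc finger proteins, and the measurements are of their cassette exons, internal exons that a transcript either carries or skips. An event is 1 cassette exon with the exon before it and the exon after it. Of the 4992 events listed in all 12 libraries of the series, 135 had a middle exon that matched an annotated exon of a protein-coding ZNF gene on the same strand (GENCODE release 29, hg38). ZNF207 was left out by the rule. These 135 events covered 128 distinct exons in 90 genes. Of them, 25 genes had several events, at most 5 in a gene, and such events often shared exons and reads, so that they are not independent measurements. The inclusion level of an exon runs from 0, where transcripts skip it, to 1, where they carry it, and was tested only where at least 10 reads per library fitted a single form of the event. That minimum left 15 events in 10 ZNF genes, of 2695 tested events in all. The other 120 are described by their event reads, that is, all reads that fitted at least 1 of the 2 forms.

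The cells were MCF10A, an established non-tumorigenic line from breast epithelium, in 3 stably transduced versions. One carried the empty MSCV vector, another a wild-type TIP60 that the siRNA cannot target, and the remaining one an equally resistant but catalytically dead TIP60. Each was transfected with control siRNA or with TIP60 siRNA and collected after 72 h, which gave 6 groups of 2 libraries. TIP60 is the protein of the gene KAT5, and whether a line was 1 clone or a pool is not given in the sources used here. Nothing in the labels says that the 2 libraries of a group came from separate cultures, so a p-value measures only the spread between these libraries, which may be technical. The design asks which changes follow TIP60 siRNA and which of them differ when a resistant active or inactive TIP60 is present.

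TIP60 is a lysine acetyltransferase that modifies histones and other proteins in transcription and DNA repair. C2H2 zinc finger proteins bind DNA through arrays of small zinc-holding fingers and form the largest family of human transcription factors. Many carry a KRAB box at their N-terminal end, which recruits TRIM28 and the histone methyltransferase SETDB1 to silence DNA, above all transposable elements. In a typical KRAB gene 1 short exon encodes the A box, a further short exon the B box, and the last long exon the whole finger array, so that skipping a short exon can remove the repressing part and keep the fingers, or shift the frame ahead of them.

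The sequences below are shown because they carry parts of the proteins that ZNF cassette exons, not all of them tested, add or remove. The first 3 encode a KRAB A box, with the 10 codons of the core pattern in capitals out of 42 whole codons in each exon. ZNF394 exon 2 of 3 (ENST00000337673.6) lies at chr7:99498716-99498842 on the minus strand. ZNF595 exon 2 of 4 (ENST00000610261.5) lies at chr4:59430-59556 on the plus strand. ZNF584 exon 2 of 5 (ENST00000322834.7) lies at chr19:58409965-58410091 on the plus strand, and it had too few isoform-specific reads to be tested. All are hg38, 5′ to 3′ on the gene's strand, taken from the GENCODE transcripts.
ZNF394: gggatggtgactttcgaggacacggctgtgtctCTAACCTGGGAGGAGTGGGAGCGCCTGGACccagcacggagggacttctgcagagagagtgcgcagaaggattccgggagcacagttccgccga
ZNF595: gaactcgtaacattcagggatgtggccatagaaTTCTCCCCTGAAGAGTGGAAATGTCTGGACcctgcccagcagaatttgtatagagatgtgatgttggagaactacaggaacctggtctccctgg
ZNF584: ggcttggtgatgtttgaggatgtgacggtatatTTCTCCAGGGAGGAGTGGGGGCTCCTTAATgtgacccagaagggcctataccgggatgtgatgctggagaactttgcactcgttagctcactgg
All 3 exons are 127 nt long, which is no multiple of 3, so that a transcript without the exon reads the next exons in another frame.

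ZNF692 has an exon of another kind, coding and a multiple of 3, at chr1:248856288-248856422 on the minus strand (exon 6 of 12 of ENST00000451251.5). It is shown because its level differed most between libraries of any tested ZNF exon. Capitals mark the 17 codons for glutamate or aspartate among its 44 whole codons, so that skipping removes an acidic stretch.
ZNF692: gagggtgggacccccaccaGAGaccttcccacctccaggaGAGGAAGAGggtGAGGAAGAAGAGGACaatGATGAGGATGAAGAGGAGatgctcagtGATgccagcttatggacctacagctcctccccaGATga

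A further ZNF584 exon has 2 annotated starts and is listed as 2 events, of 148 nt (chr19:58415793-58415940) and of 122 nt (chr19:58415819-58415940), with the same end. Its longer form adds the 26 bases below (chr19:58415793-58415818), whose last 2 bases, in capitals, directly precede the shorter form.
ZNF584: tctgccatctctaccatgattttcAG

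The 12 libraries held 1277953 to 2280488 event reads, and the 6 libraries numbered 1 and the 6 numbered 2 stood apart. The libraries numbered 1 held at least 1983221 event reads with 50.1% to 53.2% of reads fitting neither form, and those numbered 2 held at most 1566296 with 64.5% to 65.7%. Both sets contain all 6 groups. Reads of the KAT5 form with its listed cassette exon, per 1000000 event reads of the library (RPM), went in the first and second libraries from 17.2 and 5.84 to 2.52 and 1.52 under TIP60 siRNA in empty-vector cells. In wild-type TIP60 cells they went from 11.6 and 5.31 to 2.74 and 1.34, and in dead TIP60 cells from 12.02 and 6.38 to 3.95 and 0. All KAT5 event reads went from 26.1 and 6.57 to 5.54 and 1.52 RPM in empty-vector cells. With wild-type TIP60 they stayed far higher, from 2457 and 98.3 to 1795 and 78.1. With dead TIP60 they went from 1066 and 41.5 to 944 and 28.2. In both TIP60 lines they thus differed widely between the first and second libraries. Of the epithelial markers, 6 genes had a listed event and summed to 2468 to 4596 RPM. No immune marker had one, and of the mesenchymal markers FN1 alone did. FN1, which encodes fibronectin, was higher under TIP60 siRNA in each same-number pair, from 567 and 124 to 1254 and 316 RPM in empty-vector cells, from 338 and 21.3 to 561 and 34.1 in wild-type TIP60 cells, and from 816 and 237 to 2469 and 819 in dead TIP60 cells. Its part in the ZNF results was not tested.

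The 135 ZNF events differed from the other events in build. The summed length of the 3 exons had a median of 2495 nt against 533 nt in the 4857 other events. Reads that lie wholly within an outer exon fit both forms, and only 11.5% of ZNF event reads fitted a single form, against 48.1% elsewhere. The median ZNF event thus had more event reads per library (119 against 92.5) but fewer isoform-specific ones (6.75 against 45.3). The share of events that could be tested was 11.1% against 55.2%, and 52 of the 135 had a library with no isoform-specific read at all. Cassette exons of 127 nt made up 14 of the 135 events (10.4%) against 0.494% of the others, and those of 96 nt 12 (8.89%) against 1.42%. Of the 14 events of 127 nt, 13 encoded the KRAB A-box pattern. Chromosome 19, which holds the large KRAB gene clusters, carried 60 of the 135 (44.4%) against 5.29% of the other events on primary chromosomes.

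By place in the gene, 16 events had the exon in the 5′ UTR, 14 encoded a KRAB A box, 51 were other coding exons whose length is a multiple of 3, 52 were other coding exons that shift the frame, and 2 were of other kinds. Median inclusion over the 12 libraries was 0.218 in the 5′ UTR class, 0.573 in the KRAB class, 0.553 in the frame-preserving class and 0.335 in the frame-shifting class. Across all 135 it was 0.453, against 0.723 in the other events, and 61.5% of ZNF exons lay between 0.2 and 0.8 against 38.6%. The levels under the read minimum are weakly determined: the interval deposited around a level had a median width of 0.425 in ZNF events against 0.23 in the others. The part of these wide intervals in the difference between ZNF and other levels was not tested. Outside ZNF584, 72.5% to 100% of the isoform-specific reads of each KRAB event carried the exon under either siRNA. The KRAB median of 0.573 is a median of deposited levels and no share of reads. In 16 of the 135 events the exon's whole sequence also occurs in the transcripts of another gene, and in 25 events it overlaps another annotated gene on the same strand, so that reads of those may be shared. Of the tested events 4 are touched: the exon overlaps and its sequence recurs in ZNF286A (with AC005324.4) and the 219-nt exon of ZNF410 (with AC005520.1), and the 51-nt and 118-nt exons of ZNF410 overlap AC005520.1.

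**Figure D1:**
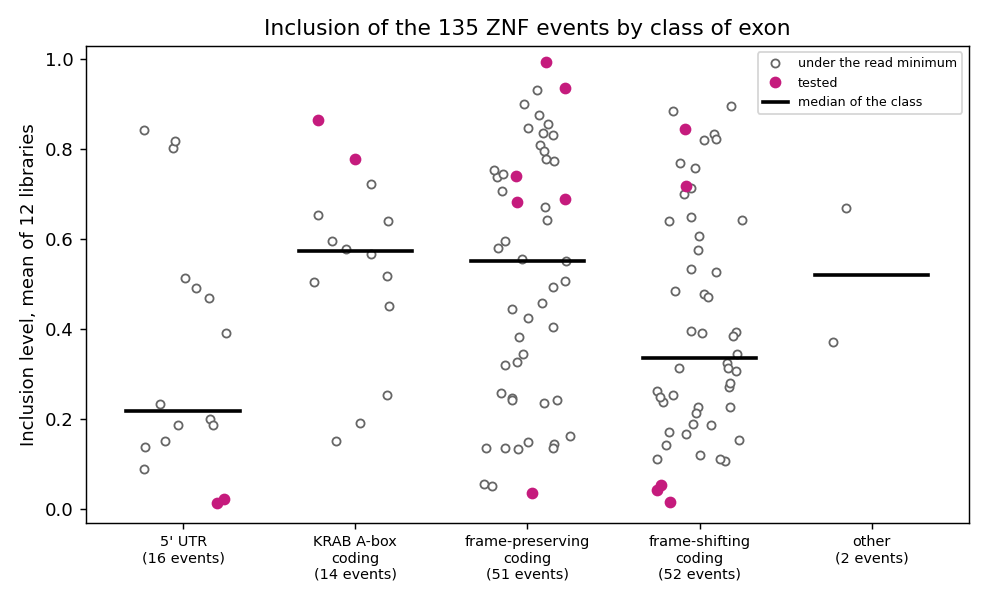
Inclusion level (mean of the 12 libraries, vertical axis, a fraction from 0 to 1) of each of the 135 ZNF events, by class of cassette exon; filled points are the 15 tested events, open points the 120 under the read minimum, and the bar is the class median. The medians run from 0.218 in the 5′ UTR class to 0.573 in the KRAB class, and each of the 4 larger classes spreads over most of the range.

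The 15 tested exons fell into a group that was nearly always included, a group that was nearly always skipped, and a group between. The order of the mean levels began with the 108-nt coding exon of ZNF706 at 0.994, where every library lay between 0.99 and 1. ZNF706 encodes a very small zinc finger protein. The 219-nt exon of ZNF410, a transcription factor known for activating CHD4, followed at 0.938 (0.89 to 0.98), then the KRAB exon of ZNF595 at 0.865 (0.63 to 0.97) and the 319-nt exon of ZNF286A at 0.846 (0.72 to 0.93). These 3 ranges overlapped. ZNF394 at 0.779 (0.67 to 0.89), ZNF385A at 0.740 (0.62 to 0.91), ZNF608 at 0.719 (0.57 to 0.85), ZNF76 at 0.689 (0.47 to 0.84) and ZNF692 at 0.683 (0.35 to 0.97) came next, with neighbours again overlapping. The skipped group began with the 122-nt and 148-nt events of ZNF584 at 0.0533 and 0.0425, followed by the 51-nt exon of ZNF410 at 0.0367. Lowest were 2 exons in the 5′ UTR of ZNF706, of 115 nt at 0.0233 and of 44 nt at 0.0142, and between them the 118-nt exon of ZNF410 at 0.0158. No level of the skipped group exceeded 0.14 in any library, and none of the included or middle groups fell under 0.35.

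The reads behind these levels differ in what they hold. ZNF608 had 571 isoform-specific reads over the 12 libraries and all of them fitted the form with its 2455-nt exon (chr5:124646679-124649133, minus strand). ZNF286A likewise had 444 with and 0 without. Their levels of 0.719 and 0.846 thus rest on no read that skips the exon. The ZNF410 219-nt exon had 1362 reads with and 3 without, while its 118-nt exon had 4 with and 647 without.

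**Figure D2:**
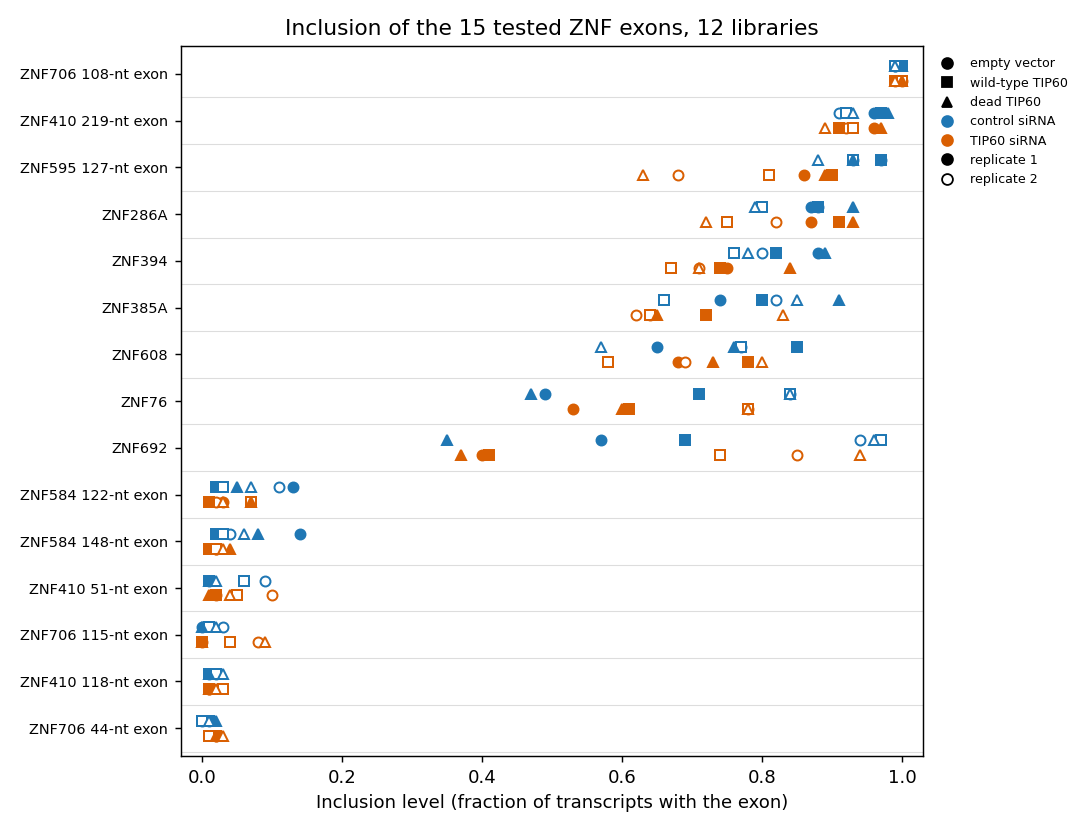
Inclusion level (horizontal axis, a fraction from 0 to 1) of the 15 tested ZNF exons in each of the 12 libraries, control siRNA in blue above TIP60 siRNA in orange, with symbols for the 3 lines and open symbols for the libraries numbered 2. ZNF595 is lower under TIP60 siRNA in every same-number pair, while ZNF692 and ZNF76 separate mainly by library number.

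Under TIP60 siRNA no ZNF exon passed the adjusted threshold of 0.05 in limma's fit of the 6 groups, in any line or on the average of the 3 lines. In empty-vector cells 0 of the 15 were called where 0.0371% of all tested events were, and 1 of 15 had an unadjusted p under 0.05 against 6.6%. In wild-type TIP60 cells 0 were called against 0.0%, and 0 of 15 reached the unadjusted limit against 4.3%. In dead TIP60 cells the counts were 0 against 0.0371% and 0 against 6.75%, and on the average of the 3 lines 0 against 2.15% and 3 against 12.3%. Of the average effects on the 15 exons, 11 were below 0 and 4 above, and the share over all tested events is not given here.

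Libraries with the same replicate number deviated alike from their group means (correlations in the processing account). With the number as a block, limma called ZNF394 alone among the 15 on the average of the lines, where 4.27% of all tested events were called. Within the lines the blocked fit called 0 of 15 each time, against 0.148% in empty-vector, 0.148% in wild-type TIP60 and 0.371% in dead TIP60 cells. A quasi-binomial model of read counts with the block likewise called 0 in each line, against 0.223%, 0.111% and 0.519%. ZNF394 encodes a KRAB zinc finger protein that also has a SCAN domain, and the exon is the A-box exon printed above. Its inclusion in the first and second libraries went from 0.88 and 0.80 to 0.75 and 0.71 in empty-vector cells. In wild-type TIP60 cells it went from 0.82 and 0.76 to 0.74 and 0.67, and in dead TIP60 cells from 0.89 and 0.78 to 0.84 and 0.71. All 6 same-number pairs moved down, although the 6 control libraries (0.822 ± 0.0531, SD, n = 6) and the 6 TIP60-siRNA libraries (0.737 ± 0.0579, SD, n = 6) overlap. The average effect was −0.085 with a standard error of 0.0139 in the blocked fit (limma, adjusted p = 0.0291) and of 0.0339 without the block (limma, adjusted p = 0.358). By line the blocked estimates were −0.11, −0.085 and −0.06 for empty vector, wild-type and dead TIP60, with adjusted p of 0.167, 0.378 and 0.398 by limma.

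The ZNF394 call depends on single libraries and on the measure. Leaving out 1 library of the blocked fit kept it in 2 of 12 cases, without the first dead TIP60 or the second empty-vector library under TIP60 siRNA, with limma's adjusted p from 0.0365 to 0.0943 and effects from −0.0947 to −0.0753. Without the block, limma's adjusted p ran from 0.211 to 0.740 over the alternatives. The isoform-specific reads were 260 with and 32 without the exon under control siRNA, and 260 with and 50 without under TIP60 siRNA. That is 89.0% against 83.9% with the exon. In the first dead TIP60 pair they were 44 with and 3 without under control, and 36 and 2 under TIP60 siRNA. The share with the exon thus did not fall in that pair, although the level did. As a share of these reads the average effect was −0.0475 (limma, adjusted p = 0.740), and the quasi-binomial model of the reads with the block gave an adjusted p of 0.528.

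The KRAB exon of ZNF595 had the largest average difference among the 15, in the same direction. Inclusion went from 0.97 and 0.93 to 0.86 and 0.68 in empty-vector cells, from 0.97 and 0.93 to 0.90 and 0.81 in wild-type TIP60 cells, and from 0.93 and 0.88 to 0.89 and 0.63 in dead TIP60 cells. Every pair moved down, and the groups overlap only in that the lowest control library (0.88) lies under the highest TIP60-siRNA libraries. The reads without the exon were 0 in 4 of the 6 control libraries and 3 in all, against 17 under TIP60 siRNA with none at 0, while reads with the exon were 215 and 162. The average effect was −0.14 ± 0.0528 (SE; limma, adjusted p = 0.318), and with the block −0.14 ± 0.0344 (SE; limma, adjusted p = 0.0854). It thus missed the threshold in both fits, and passed it (limma, adjusted p = 0.0459) in 1 of the 12 blocked fits with a library left out, that without the first dead TIP60 library under TIP60 siRNA.

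ZNF385A, a zinc finger protein described as a partner of p53, has a 243-nt coding exon (chr12:54371473-54371715, minus strand, exon 5 of 8 of ENST00000338010.9). Its inclusion went from 0.74 and 0.82 to 0.64 and 0.62 in empty-vector cells, from 0.80 and 0.66 to 0.72 and 0.64 in wild-type TIP60 cells, and from 0.91 and 0.85 to 0.65 and 0.83 in dead TIP60 cells. Every pair was lower under TIP60 siRNA, but by as little as 0.02 in the second pairs of the 2 TIP60 lines, and the groups overlap. Reads without the exon numbered 6 of 217 under control and 23 of 275 under TIP60 siRNA. The average effect of −0.113 ± 0.0414 (SE) did not pass in limma without the block (adjusted p = 0.297) or with it (adjusted p = 0.227).

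Skipped forms of ZNF584 were the rule for its exon with 2 starts. The 122-nt event went from 0.13 and 0.11 to 0.03 and 0.02 in empty-vector cells, but from 0.02 and 0.03 to 0.01 and 0.07 with wild-type TIP60 and from 0.05 and 0.07 to 0.07 and 0.03 with dead TIP60. Only the empty-vector control libraries stood above 0.1. The empty-vector effect was −0.095 ± 0.0272 (SE; limma, adjusted p = 0.408; with the block 0.265). The difference of the siRNA effect between wild-type TIP60 and empty vector was 0.11 ± 0.0385 (SE) with an adjusted p of 1 by limma. The 148-nt event of the same exon had a lower level in all 6 pairs, from 0.02 to 0.14 under control and from 0.01 to 0.04 under TIP60 siRNA. Of its isoform-specific reads, 14 of 155 under control against 1 of 152 under TIP60 siRNA fitted the form with it. In wild-type TIP60 cells no library held such a read, so the falls there rest on none. The control reads with the exon were 6 and 1 in empty-vector and 4 and 3 in dead TIP60 cells. The average effect on the 148-nt event was −0.0383 ± 0.0188 (SE, limma, adjusted p = 0.500, with the block 0.295). Both events share the skipping reads, so they count as 1 observation.

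By the deposited level, 4 of the 15 tested exons were lower in 6 of 6 same-number pairs, against 9.46% of all tested events. They were ZNF385A, ZNF394, ZNF595 and the 148-nt event of ZNF584. None of the 15 was higher in 6 of 6, against 2.34%. For each of these 4, some pair showed no such fall in the isoform-specific reads. In the first dead TIP60 pair, ZNF595 had 48 reads with and 2 without the exon under control, and 53 and 2 under TIP60 siRNA. In the second dead TIP60 pair, ZNF385A had 33 and 34 reads with and 0 without the exon. The cases of ZNF394 and ZNF584 are given above. Going the other way, the 2 tested 5′ UTR events of ZNF706 had low levels in every library. The tested event of the 44-nt exon had levels of 0 to 0.02 under control and 0.01 to 0.03 under TIP60 siRNA. The reads that fitted its form with the exon numbered 9 and 36. Its average effect was 0.0117 ± 0.00495 (SE, limma, adjusted p = 0.406, with the block 0.199). The 115-nt exon had no read with the exon in any of the 6 libraries numbered 1. In the libraries numbered 2 those reads went from 25 to 68 in empty-vector cells, from 10 to 44 with wild-type TIP60 and from 18 to 62 with dead TIP60, beside 303 to 442 reads without it. The inclusion level moved by 0.0233 ± 0.0132 (SE) on average in the blocked limma fit (adjusted p = 0.389), while the quasi-binomial model of the reads with the block called it, at 1.89 ± 0.24 log2 odds (SE; adjusted p = 0.00843, where 6.09% of all tested events were called). That call rests on the libraries numbered 2 alone. Another event of the 44-nt exon, with a different outer exon, lay under the read minimum and was not tested. Its levels went from 0.07 and 0.09 to 0.25 and 0.34 in empty-vector cells. With wild-type TIP60 they went from 0.07 and 0.14 to 0.24 and 0.28, and with dead TIP60 from 0.07 and 0.13 to 0.19 and 0.38. Its control libraries numbered 1 held no isoform-specific read. Those numbered 1 under TIP60 siRNA held 3, 3 and 2 in empty-vector, wild-type and dead TIP60 cells. This event was named outside the naming rule given below, and the share of untested events that moved likewise is not given here.

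**Figure D3:**
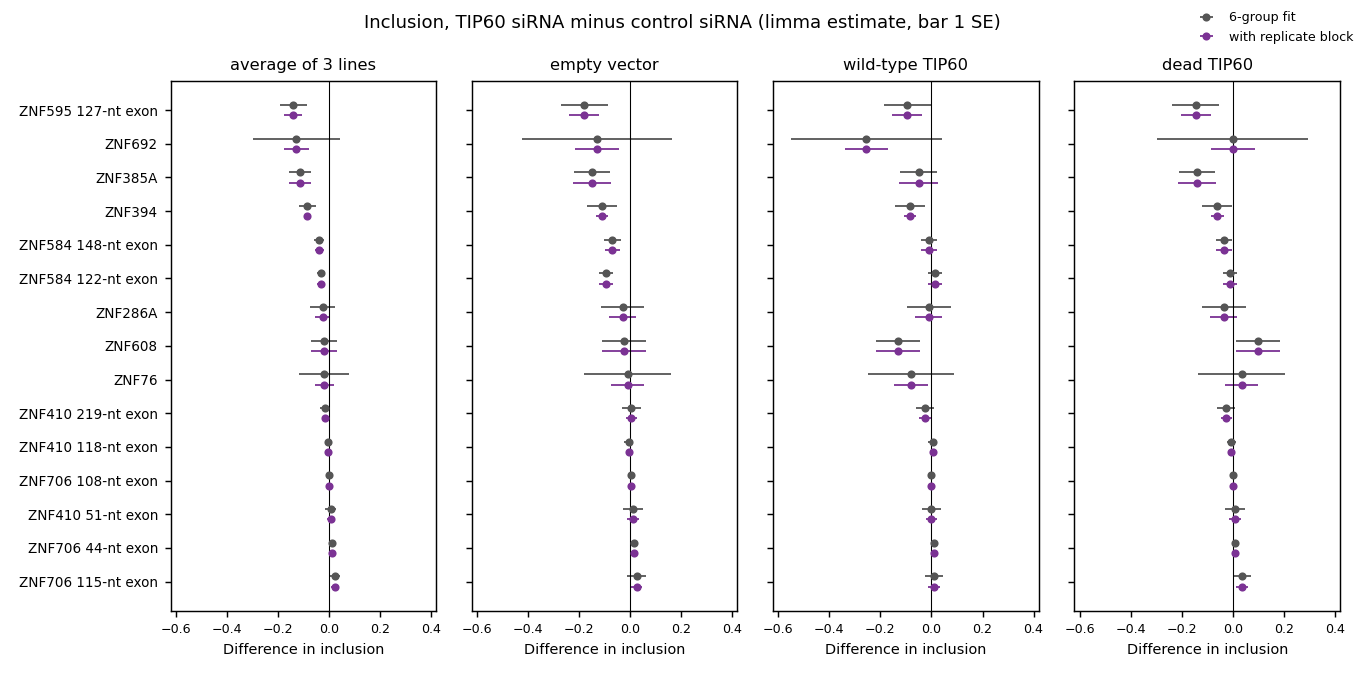
Difference in inclusion (horizontal axis, TIP60 siRNA minus control siRNA, in units of the inclusion level) of the 15 tested ZNF exons, as limma's estimate with a bar of 1 SE each way, on the average of the 3 lines and in each line. Grey is the fit of 6 groups and purple the fit with the replicate block; the block narrows the bars of ZNF394, ZNF595, ZNF692 and ZNF76 and leaves their estimates unchanged.

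ZNF692, also known as AREBP, AICAR responsive element-binding protein, split more by library number than by siRNA. Its acidic exon, printed above, had levels of 0.57 and 0.94 under control and 0.40 and 0.85 under TIP60 siRNA in empty-vector cells. With wild-type TIP60 they were 0.69 and 0.97 against 0.41 and 0.74, and with dead TIP60 0.35 and 0.96 against 0.37 and 0.94. The libraries numbered 1 averaged 0.465 and those numbered 2 0.900, and the sets did not overlap. Reads without the exon were 0 in 5 of 6 control libraries and in none of the 6 TIP60-siRNA libraries, with 6 and 26 reads in all. Over all libraries 1203 reads fitted the form with the exon and 32 the form without it. Control libraries with no skipping read had levels of 0.57 and 0.69 among those numbered 1. Among those numbered 2 they had 0.94, 0.97 and 0.96, so the level differed by number even where no read skipped the exon. The average effect was −0.128 ± 0.171 (SE; limma, adjusted p = 0.964) and with the block −0.128 ± 0.0493 (SE; limma, adjusted p = 0.224). In wild-type TIP60 cells the blocked estimate was −0.255 ± 0.0854 (SE; limma, adjusted p = 0.493).

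ZNF76, a close relative of the transcription activator ZNF143, showed the same split for its 165-nt exon (chr6:35293751-35293915, plus strand). The libraries numbered 1 had levels of 0.47 to 0.71 and those numbered 2 of 0.78 to 0.84, with no overlap. The average siRNA effect was −0.0183 ± 0.0377 (SE; limma with the block, adjusted p = 0.838). ZNF608 had its largest values in the wild-type TIP60 line, from 0.85 and 0.77 under control to 0.78 and 0.58 under TIP60 siRNA (−0.13 ± 0.0865, SE; limma, adjusted p = 1). In dead TIP60 cells it went from 0.76 and 0.57 to 0.73 and 0.80. The difference between these 2 siRNA effects was 0.23 ± 0.122 (SE; limma, adjusted p = 1). No library held a read that skips the ZNF608 exon, so none of these differences rests on observed skipping.

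None of the 6 comparisons between lines, or between the siRNA effects of 2 lines, called a ZNF exon without or with the block, nor any other event: the share called was 0.0% in each. For the siRNA effect of wild-type TIP60 minus empty vector, 1 of the 15 had an unadjusted p under 0.05 against 1.71% of tested events. For dead TIP60 minus empty vector it was 0 against 1.34%, and for dead minus wild-type TIP60 0 against 1.19%. Under control siRNA, wild-type TIP60 against empty vector gave 1 of 15 against 1.6%, again the 122-nt event of ZNF584 (−0.095 ± 0.0272, SE; limma, adjusted p = 1), and dead TIP60 against empty vector 0 against 0.853%. Under TIP60 siRNA, dead against wild-type TIP60 gave 0 against 2.45%. In that last comparison ZNF394 was higher in dead TIP60 cells by 0.07 ± 0.024 (SE) in the blocked fit, with an adjusted p of 0.840 by limma. Data were also simulated for the empty-vector siRNA comparison without the block, over 2695 events. There 1.49% of the 67 exons changed by 0.1 and 7.58% of the 66 exons changed by 0.3 were called. The changed exons all had middle base levels and the library numbers did not differ in level. These shares therefore do not measure what the comparisons above could find.

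The other 12 KRAB A-box events lay under the read minimum, so their levels are given as values only. Apart from ZNF394 and ZNF595, the mean levels ran from 0.151 and 0.193 for the 2 overlapping events of ZNF584 exon 2 to 0.723 for a ZNF480 event. ZNF584 exon 2 again split by library number, with 0.19 to 0.53 in the libraries numbered 1 and 0.01 to 0.09 in those numbered 2 for its 127-nt form. The mean under TIP60 siRNA was lower than under control siRNA for 9 of the 14 events, higher for 5. The share over all events is not given here and several of the 14 overlap, so the count is no result about KRAB exons. Some differences were slight, as in a ZNF83 event counted as lower, at 0.453 against 0.452. The isoform-specific reads of ZNF721, 118 in all, fitted the form with the exon without exception, at a mean level of 0.596. The same ZNF83 event had 91 of 95 such reads with the exon under control siRNA, at a mean level of 0.453 there.

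Event reads stand in for expression over the exons of an event, since no gene counts were used here. Fewer cells that express a gene and less RNA per cell cannot be told apart in such bulk libraries. The highest mean levels among the 135 were those of the 5 ZNF83 events, from 304 to 310 RPM, which share most of their reads through the last exon. Per 1000 bases of the 3 exons they stood at 114 to 117 RPM, while the 44-nt and 115-nt events of ZNF706 reached 484 and 442. Single libraries of the ZNF83 events ran from 123 to 510 RPM.

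In limma's fit of the 6 groups no ZNF event passed the adjusted threshold for event reads. The counts were 0 of 135 against 0.741% of all 4992 events on the average of the lines, and 0 against 0.0% in each of the 3 lines and in both comparisons of a resistant construct with empty vector under control siRNA. At an unadjusted p under 0.05 there were 4 of 135 on the average of the lines against 11.0%, 3 in empty-vector cells against 4.77%, 1 with wild-type TIP60 against 1.88% and 2 with dead TIP60 against 4.67%, and 0 in both construct comparisons against 0.2% for wild-type and 0.0% for dead TIP60. With the replicate block, 12 of the 135 were called on the average of the lines, against 16.8% of all events. Of these 12, 9 were higher and 3 lower, whereas of the 837 calls among all events 36.0% were higher. The median effect over the 135 was 0.0251 on the log2 scale and over all events −0.0997. In empty-vector cells 3 ZNF events were called against 3.08%, in dead TIP60 cells 2 against 2.84% (5 against 2.04% with median-ratio scaling, 4 against 5.65% with at least 10 event reads in each library), in wild-type TIP60 cells 0 against 0.02%, and in the construct comparisons 0 against 0.0%. FN1 reads, given above, were higher in the same 6 pairs, and their part in these counts was not tested. On the average of the lines the share of called ZNF events was below the share over all events.

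ZNF74, a KRAB gene in the region lost in DiGeorge syndrome, had the largest effect among the 12 called events and is measured by 2 of them. Its 96-nt event (chr22:20401277-20401372, plus strand, exon 5 of 6 of ENST00000611540.4) went from 77.7 and 218 to 236 and 499 RPM in empty-vector cells. With wild-type TIP60 it went from 158 and 248 to 232 and 413, and with dead TIP60 from 99.1 and 243 to 214 and 534. All 6 pairs rose, and the libraries numbered 2 were the higher ones of each group. The average effect was 1.05 ± 0.137 (SE, log2; limma with the block, adjusted p = 0.00128), a factor of 2.08 on that scale, and without the block the same estimate had a SE of 0.417 (limma, adjusted p = 0.399). It also passed in the blocked limma fit within empty-vector cells (1.40, adjusted p = 0.0181) and within dead TIP60 cells (1.12, adjusted p = 0.0360). The 86-nt event of ZNF74, at its exon 2, shares no cassette exon with it and averaged 0.97 ± 0.2 (SE, log2; limma with the block, adjusted p = 0.0110).

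ZNF23 (126-nt exon, chr16:71450590-71450715, minus strand) was called with the block on the average of the lines and in 2 of the 3 lines. It had 89.4 and 83.3 RPM under control and 179 and 203 under TIP60 siRNA in empty-vector cells, and 77.4 and 61.9 against 210 and 147 in dead TIP60 cells. In wild-type TIP60 cells it had 98.8 and 98.3 against 137 and 91.5. The 4 libraries of TIP60 siRNA without the wild-type construct all lay above every control library, and 5 of 6 pairs rose. The average effect was 0.89 ± 0.146 (SE, log2; limma with the block, adjusted p = 0.00358), and without the block the adjusted p was 0.105. In dead TIP60 and empty-vector cells the blocked effects were 1.34 and 1.14 (limma, adjusted p = 0.0237 and 0.0433). Of its event reads 0.531% were isoform-specific, so nothing can be said of its splicing.

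ZNF461 (69-nt exon, chr19:36643794-36643862, minus strand) was a low event that rose in all 6 pairs. Its values were 12.6 and 16.1 against 41.3 and 40.2 RPM in empty-vector cells, 18.2 and 16.6 against 21.9 and 22.0 with wild-type TIP60, and 25.01 and 16.6 against 52.6 and 40.7 with dead TIP60. In the empty-vector and dead TIP60 lines the siRNA groups did not overlap, and in the wild-type line they lay closer. The average effect was 0.99 ± 0.198 (SE, log2; limma with the block, adjusted p = 0.00941), and 1.49 in empty-vector cells (limma with the block, adjusted p = 0.04995).

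ZNF696 had 27.9 to 50.9 RPM under control in the libraries numbered 1 and 215 to 263 in those numbered 2, and 49.8 to 69.5 and 381 to 438 under TIP60 siRNA. The libraries numbered 2 averaged 6.56 times those numbered 1, yet all 6 pairs rose, with an average effect of 0.80 ± 0.166 (SE, log2; limma with the block, adjusted p = 0.0110). ZNF140, which encodes a KRAB repressor, had a control median of 54.6 RPM (32.9 to 102) and a TIP60-siRNA median of 87.5 (50.8 to 176). ZNF30 had 33.2 (19.8 to 48.4) against 60.6 (32.1 to 91.6). Both rose in 6 of 6 pairs, by 0.67 ± 0.144 and 0.82 ± 0.181 (SE, log2), with adjusted p of 0.0132 and 0.0145 by limma with the block. ZNF493 rose in 5 of 6 pairs, by 0.66 ± 0.181 (SE, log2; limma with the block, adjusted p = 0.0327).

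For ZNF211 the values went apart by line, but no difference between lines passed the threshold. It had 45.6 and 18.99 against 74.5 and 53.8 RPM in empty-vector cells and 51.5 and 18.5 against 99.5 and 56.3 in dead TIP60 cells, but 47.4 and 21.3 against 47.1 and 20.0 with wild-type TIP60. Its average effect was 0.77 ± 0.184 (SE, log2; limma with the block, adjusted p = 0.0201). The siRNA effect with wild-type TIP60 was smaller than in empty-vector cells by 1.14 ± 0.45 and than with dead TIP60 by 1.31 ± 0.45 (SE, log2, blocked fit), with adjusted p of 0.999 and 1.00 by limma. The same difference from empty vector was −0.957 ± 0.358 for ZNF23, −1.15 ± 0.486 for ZNF461 and −0.751 ± 0.336 for the 96-nt event of ZNF74 (SE, log2), none of which passed (limma with the block, adjusted p = 0.999 for each). Of the 135 events, 5 reached an unadjusted p under 0.05 in that comparison with the block, against 2.9% of all events. For dead minus wild-type TIP60 it was 4 against 3.35%, and for dead TIP60 minus empty vector 0 against 1.02%. In each of the 3, 0 were called against 0.0%, with and without the block. That ZNF23 and the 96-nt event of ZNF74 passed in the empty-vector and dead TIP60 lines, and ZNF461 in the empty-vector line, but none in the wild-type line, is therefore not shown to be a difference between lines.

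The 3 called events that fell were 2 overlapping events of ZNF544 and 1 of ZNF180. The 49-nt event of ZNF544, which shares its end (chr19:58246746-58246794, plus strand) and most reads with the 84-nt event, had 302, 287, 257, 197, 329 and 199 RPM in the control libraries of the empty-vector, wild-type and dead lines. Under TIP60 siRNA it had 218, 159, 250, 188, 213 and 146. Each pair fell, by as little as from 257 to 250, with an average effect of −0.42 ± 0.12 (SE, log2; limma with the block, adjusted p = 0.0404). ZNF180 fell in 5 of 6 pairs, by 0.64 ± 0.189 (SE, log2; limma with the block, adjusted p = 0.0452). The ZNF544 exons also match AC020915.5, whose reads cannot be told apart from theirs. These 3 calls depended on the scaling. Median-ratio scaling moves the libraries by −0.31 to 0.46 log2 and the median effect over all events from −0.0997 to 0.00902. Under it, with the block, 12 ZNF events were again called (15.4% of all events), now 12 higher and 0 lower, and 9 of them were the events called higher before. ZNF180 and the ZNF544 events then had adjusted p of 0.0682, 0.155 and 0.170 by limma, while ZNF263, ZNF304 and ZNF554 joined (0.68, 0.54 and 0.69 on the log2 scale). Of all calls 47.2% were higher under that scaling.

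**Figure D4:**
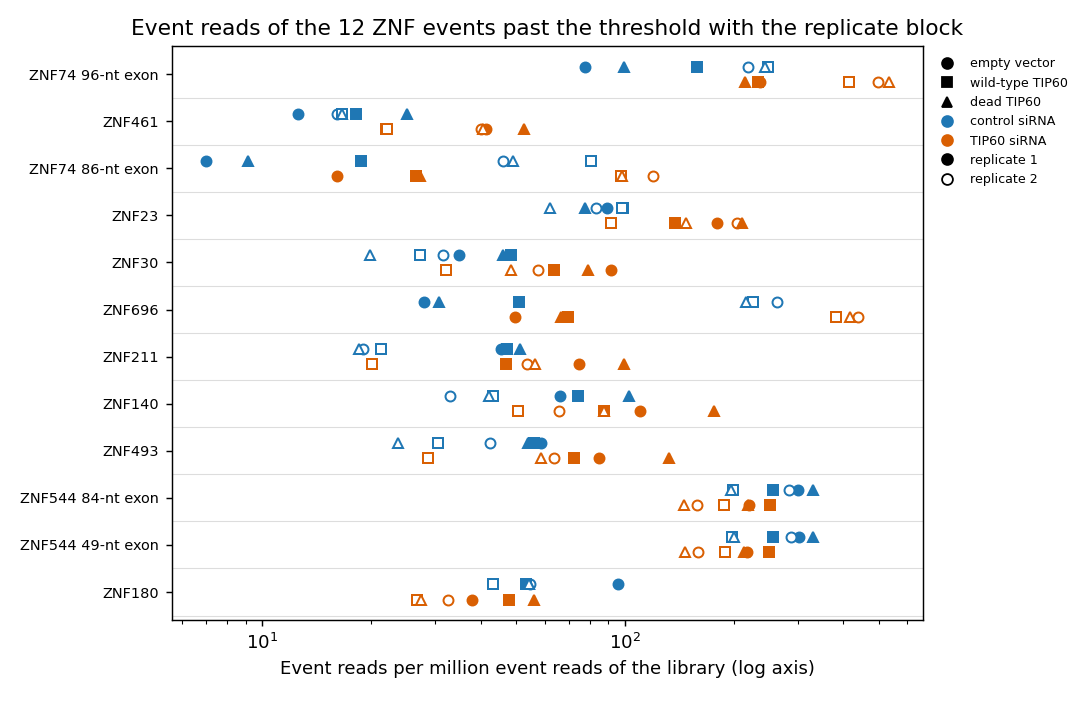
Event reads per 1000000 event reads of the library (horizontal axis, log scale) of the 12 ZNF events called on the average of the lines with the replicate block, in each of the 12 libraries, control siRNA in blue above TIP60 siRNA in orange. The upper 9 rows are higher under TIP60 siRNA in 4 to 6 of the 6 same-number pairs and the lower 3 are lower in 5 or 6, while ZNF696 and the 86-nt event of ZNF74 separate wholly by library number.

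With 1 library left out, the blocked fit called 5 to 14 ZNF events, the fewest without the second dead TIP60 control library and the most without the second empty-vector library under TIP60 siRNA. ZNF23, ZNF461, ZNF696 and both ZNF74 events were called in 12 of 12 such fits, ZNF140 and ZNF30 in 9, ZNF211 in 6, the ZNF544 events in 3 and 1, and ZNF493 and ZNF180 in 2 each. Event reads rose in 6 of 6 pairs for 14 of the 135 events against 12.1% of all events, and fell in 6 of 6 for 7 against 18.7%.

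Single lines gave a few larger but unpassed differences at low counts. ZNF512 had 7.91 and 15.3 RPM under control and 4.03 and 0.758 under TIP60 siRNA in empty-vector cells (limma, adjusted p = 0.986). ZNF146, a protein made of zinc fingers alone, had 7.56 and 9.30 against 3.20 and 0.668 with wild-type TIP60, where its second library held a single event read (limma, adjusted p = 1.00). The ZNF76 event had 22.2 and 20.6 against 12.3 and 8.01 there (limma, adjusted p = 1.00), and the readthrough gene ZNF670-ZNF695 had an effect of 1.05 (limma, adjusted p = 1.00). Between constructs under control siRNA the lowest unadjusted p belonged to ZNF85 and ZNF7. The 99-nt event of ZNF85 had 22.3 and 13.1 RPM with empty vector against 11.1 and 9.96 with wild-type and 10.6 and 5.11 with dead TIP60, and ZNF7 had 2.33 and 3.65 against 12.1 and 4.65 and against 11.5 and 5.11. None of these passed in limma (adjusted p = 1.00 for each).

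Of the genes that work with KRAB proteins, 7 had a listed event among the co-repressor list: DAXX, DNMT1, EHMT2, FAM208A, HDAC2, PPHLN1 and SETDB1, with 9 events of which 5 were tested for inclusion. None passed in the fit without the block, for inclusion or event reads. With the block 0 of 5 passed for inclusion, and for event reads on the average of the lines 2 of 9 were lower and 0 higher, where 16.8% of all events were called, with a median effect of −0.255 beside −0.0997 over all events. Both were overlapping events of DAXX, a histone H3.3 chaperone that works with ATRX. Its 256-nt event had 260 and 470 RPM under control and 75.5 and 220 under TIP60 siRNA in empty-vector cells, 214 and 449 against 161 and 352 with wild-type TIP60, and 236 and 467 against 113 and 178 with dead TIP60. Every pair fell, by 1.01 ± 0.133 on average (SE, log2; limma with the block, adjusted p = 0.00128).

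Of other C2H2 zinc finger genes, outside the ZNF symbols, 24 genes had 33 events, 11 of them tested. Without the block 0 passed. With it 1 of 11 was lower in inclusion on the average of the lines, where 4.27% of all tested events were called, and 5 of 33 were lower and 0 higher in event reads, where 16.8% of all events were called. The median effect on event reads was −0.0631 beside −0.0997 over all events. The inclusion call was a 225-nt exon of MAZ, a C2H2 transcription factor, with 0.33 and 0.28 under control and 0.20 and 0.18 under TIP60 siRNA in empty-vector cells, 0.42 and 0.32 against 0.33 and 0.23 with wild-type TIP60, and 0.41 and 0.34 against 0.24 and 0.17 with dead TIP60. That is −0.125 ± 0.0115 on average (SE; limma with the block, adjusted p = 0.00727), and all 6 pairs fell. The event-read calls were 2 events each of ZFP1 and PATZ1 and 1 of ZBTB33, with effects from −0.46 to −0.76 on the log2 scale.

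At the minimum of 10 isoform-specific reads, the 2 ZNF584 events and ZNF76 just inside had 12 in their weakest library, and ZNF3, ZNF33A and the 96-nt event of ZNF74 just outside had 9. The mean levels were 0.0425, 0.0533 and 0.689 inside, and 0.804, 0.886 and 0.932 outside.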

How the data were processed

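Per the labels' protocols, TRIzol gave the RNA and a TruSeq stranded mRNA kit the libraries. Reads were aligned with STAR to hg38, per the submitters' processing notes, which give no version. The deposited inclusion level is a fraction: per the file headers, the MISO posterior mean from 0 to 1 with interval bounds (their confidence level is not stated) and, in the deposited tables, read numbers by the forms they fit. From these the computed values were event reads (reads fitting 1 or both of the 2 forms) per 1000000 of the library. ZNF events were found by matching the middle exon to GENCODE release 29; in 13 events the exon matched another gene equally well. The members and lists were chosen with earlier results of these data known, and the KRAB pattern was widened and ZFYVE genes were dropped from the C2H2 list after annotated proteins were viewed.

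limma 3.58.1 (R 4.3.3) was fitted to the whole table, 1 factor of 6 groups, with variance trend and robust option: inclusion over 2695 events in 10 comparisons, log2(RPM + 0.5) over 4992 events in 6, and the differences of siRNA effects for event reads, added later. P-values are two-sided and Benjamini-Hochberg adjusted over all events, threshold 0.05. Fits were tested on simulated data. The labels number the replicates and state no pairing. Deviations of same-number libraries from their group means correlated at 0.743, 0.779 and 0.763 for inclusion (empty vector, wild-type, dead TIP60) and 0.855, 0.896 and 0.851 for event reads. These correlations cannot tell a pairing within a line from a difference shared by all libraries of a number. Fits with the number as a block are given where they change a call. Depth per library is 1277953 to 2280488 event reads, and intervals cover counting error only. Named events follow a rule: every event past the threshold with or without the block, those of smallest p per comparison, the highest and lowest levels, the best-covered per exon class, and those at the read minimum. DAXX, MAZ and the quasi-binomial call of ZNF706 were named after their values were seen. Other alternatives were a minimum of 20 reads or none, log2 odds held within 0.01 and 0.99, the share of reads, a quasi-binomial model, primary chromosomes, only the libraries compared, a pseudocount of 2, median-ratio scaling and leaving out each library.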

Additional observations from a re-analysis of the deposited data

How the results depend on the processing

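Without the replicate block the count of ZNF events past the threshold was 0 in all 16 comparisons (10 of inclusion, 6 of event reads) and stayed 0 under each alternative run without it. Every change came with the block. For inclusion on the average of the lines, limma with the block gave 1 (ZNF394), and with 1 library left out 0 to 2. The quasi-binomial model with replicate block gave 1, a different event (the 115-nt exon of ZNF706). For event reads on the average of the lines, the block gave 12, with median-ratio scaling 12, with at least 10 event reads in each library 12, and with 1 library left out 5 to 14, namely 5, 6, 7, 8, 10, 12, 13 or 14 by library. In empty-vector cells those were 3, 4 and 3, and in dead TIP60 cells 2, 5 and 4. Over all events, the block moved the calls on the average of the lines from 58 to 115 for inclusion and from 37 to 837 for event reads. Of 1356 alternative values for 61 effects of named events, 0 changed direction, 1210 stayed on their side of the threshold and 146 passed it where the 6-group fit did not; the cause was not tested. Isoform-specific reads limit inclusion: 120 of 135 events fell under the read minimum, and among the 15 tested the deposited intervals were up to 0.74 wide (ZNF608, of the inclusion level).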
